A study of Mus musculus with 29 samples.

Results

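Rora, Maf, Ahr, Ccl20, Il17a, Il17f, Il23r and Il1r1 are 8 genes of the Th17 program, described here over 29 RNA sequencing libraries of mouse CD4+ T cells in 10 groups. They were listed by name, as transcription factors, secreted products and receptors of Th17 cells, with earlier results of these data known. Each symbol was matched to 1 of the 55414 Ensembl gene identifiers in the count files: Rora to ENSMUSG00000032238, Maf to ENSMUSG00000055435, Ahr to ENSMUSG00000019256, Ccl20 to ENSMUSG00000026166, Il17a to ENSMUSG00000025929, Il17f to ENSMUSG00000041872, Il23r to ENSMUSG00000049093 and Il1r1 to ENSMUSG00000026072. All 8 had at least 1 count, and 6 passed the filter on low counts and were tested. Il23r and Il1r1 did not pass it and are given as counts.

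Th17 cells are CD4+ helper T cells that secrete interleukin 17A and interleukin 17F, act in defence at mucosal surfaces and take part in autoimmune inflammation. Cultured mouse CD4+ T cells are known to become Th17 cells when TGF-beta acts together with interleukin 6, whereas TGF-beta with interleukin 2 favours regulatory cells that express Foxp3. The nuclear receptor ROR alpha (Rora) takes part in driving the program, and Maf and the aryl hydrocarbon receptor (Ahr) shape which cytokines the cells make. CCL20 is the chemokine ligand of CCR6, and the receptors for interleukin 23 and interleukin 1 let the cells respond to inflammatory signals.

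The cells came from spleens of C57BL/6-Foxp3tm1Flv/J mice, in which a red fluorescent protein (RFP) reports Foxp3, the transcription factor of regulatory T cells. Every group was stimulated through CD3 and CD28 with 50 IU/ml interleukin 2 in medium holding 0.5 mM glucose, and the labels name no interleukin 6. Media differed in TGF-beta (3 ng/ml or none) and lactic acid (10 mM or none). At 72 h, RFP+ cells (Treg) were sorted from TGF-beta with lactic acid and from TGF-beta alone. RFP- cells (Tcon) were sorted at 72 h and at 24 h from TGF-beta with lactic acid, TGF-beta alone, lactic acid alone and neither. Groups hold 3 libraries, except 72 h Tcon with neither addition, which has 2 (replicates 1 and 2). Replicate 1 is from male mice, replicates 2 and 3 from female mice. No source states that these came from separate animals, so p-values measure the spread between these libraries, which may in part be technical.

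The libraries held 9754511 to 14315313 gene counts (median 12106958). All 8 CD4 T cell markers were present in every group, and their summed level was 2720 to 3780 CPM (counts scaled to library size, on the CPM scale) by group mean. Foxp3 averaged 469 ± 103 and 224 ± 76.1 CPM in Treg with and without lactic acid, against 48.6 ± 12.2 and 23.5 ± 10.9 CPM in the matching Tcon (SD, n = 3 each). Of the other cell types, the myeloid marker sum stayed at or below 1.73 CPM in every library, whereas the sum of 8 B cell markers was 83.7 to 301 CPM, nearly all of it Ighm. The replicate 1 libraries at 72 h stand apart from the other 72 h libraries, and among the 8 genes this shows in Rora. Replicate 1 is the only replicate from male mice, so sex and replicate cannot be told apart. Fits without the 72 h replicate 1 libraries hold only female libraries at 72 h. In bulk RNA, fewer cells of a type and less RNA per cell cannot be told apart, so a low level of a Th17 gene may be many cells with little RNA or few cells with much.

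The 250 bases before the start of 4 of the genes are shown because they hold short elements read by the transcription factors in the set. RefSeq windows (GRCm38.p6, a build other than that of the counts) were matched for 6 of the 8 genes, in 7 windows since Il1r1 has a pair of starts; Maf and Ahr had none. Sequences run 5′ to 3′ on the strand of the gene, and capitals mark matches, on either strand, to AGGTCA (the ROR monomer element), GCGTG (the Ahr core), TGANTCA (AP-1) or TGCTGAC (a core of the Maf recognition element). TTCNNNGAA (STAT) and GTCTAGAC (Smad) were also searched on both strands, and neither string lies in the 7 windows. The windows are Il17a at chr1:20730655-20730904 (plus strand), Il17f at chr1:20784271-20784520 (minus), Ccl20 at chr1:83116516-83116765 (plus) and Il23r at chr6:67491856-67492105 (minus).
Il17a: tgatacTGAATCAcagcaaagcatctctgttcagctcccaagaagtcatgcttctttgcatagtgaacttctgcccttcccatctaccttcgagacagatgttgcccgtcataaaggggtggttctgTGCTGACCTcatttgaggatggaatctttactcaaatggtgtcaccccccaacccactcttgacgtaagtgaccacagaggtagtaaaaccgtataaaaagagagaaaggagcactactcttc
Il17f: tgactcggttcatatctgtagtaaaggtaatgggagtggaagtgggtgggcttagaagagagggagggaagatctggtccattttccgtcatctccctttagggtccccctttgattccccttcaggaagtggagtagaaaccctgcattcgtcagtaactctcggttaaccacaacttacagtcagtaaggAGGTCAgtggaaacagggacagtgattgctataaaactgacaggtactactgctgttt
Ccl20: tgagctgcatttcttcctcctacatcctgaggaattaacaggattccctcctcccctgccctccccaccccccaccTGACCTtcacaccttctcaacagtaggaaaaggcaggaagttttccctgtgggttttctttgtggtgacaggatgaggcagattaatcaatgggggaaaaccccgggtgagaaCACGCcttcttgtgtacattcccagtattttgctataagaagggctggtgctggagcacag
Il23r: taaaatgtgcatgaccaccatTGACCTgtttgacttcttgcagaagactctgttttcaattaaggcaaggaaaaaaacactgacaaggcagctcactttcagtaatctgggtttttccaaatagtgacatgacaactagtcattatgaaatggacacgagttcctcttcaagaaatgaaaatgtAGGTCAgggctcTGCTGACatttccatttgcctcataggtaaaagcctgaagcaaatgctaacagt

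In the Il17a window, the capitals TGCTGACCT join the Maf core, 123 to 117 bases before the start, to AGGTCA on the reverse strand, 120 to 115 bases before it, so these overlap. Its TGAATCA, which matches the AP-1 string, lies 244 to 238 bases before the start. Il17f has AGGTCA 58 to 53 bases before the start. Ccl20 has it on the reverse strand (174 to 169) and a reverse Ahr core (61 to 57). Il23r has AGGTCA in both orientations (229 to 224 and 66 to 61) and a Maf core (54 to 48). AGGTCA was thus found in 4 of the 7 windows, against 14.0% of 32851 mouse promoter windows of the same length. GCGTG was found in 3 of 7, in Ccl20, Rora and 1 start of Il1r1 (28.2% of all promoters), TGCTGAC in 2 (3.8%) and TGANTCA in 1 (6.7%). TTCNNNGAA is in 7.0% of all promoters and GTCTAGAC in 0.2%. These are letter matches in a short window and not measured binding.

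On the CPM scale the transcription factor genes had the highest levels. By group mean, Rora ranged from 4.33 to 65.6 CPM, Maf from 4.59 to 86.3 CPM and Ahr from 4.68 to 39.3 CPM. Ccl20 spanned 0.233 to 16.5 CPM. The cytokine genes were low everywhere: no library held more than 2.92 CPM of Il17a or 3.18 CPM of Il17f. Per kilobase of exon, the highest group means were 5.02 CPM per kb for Rora, 10.5 for Maf, 6.37 for Ahr, 11.6 for Ccl20, 1.7 for Il17a and 1.01 for Il17f.

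**Figure D1:**
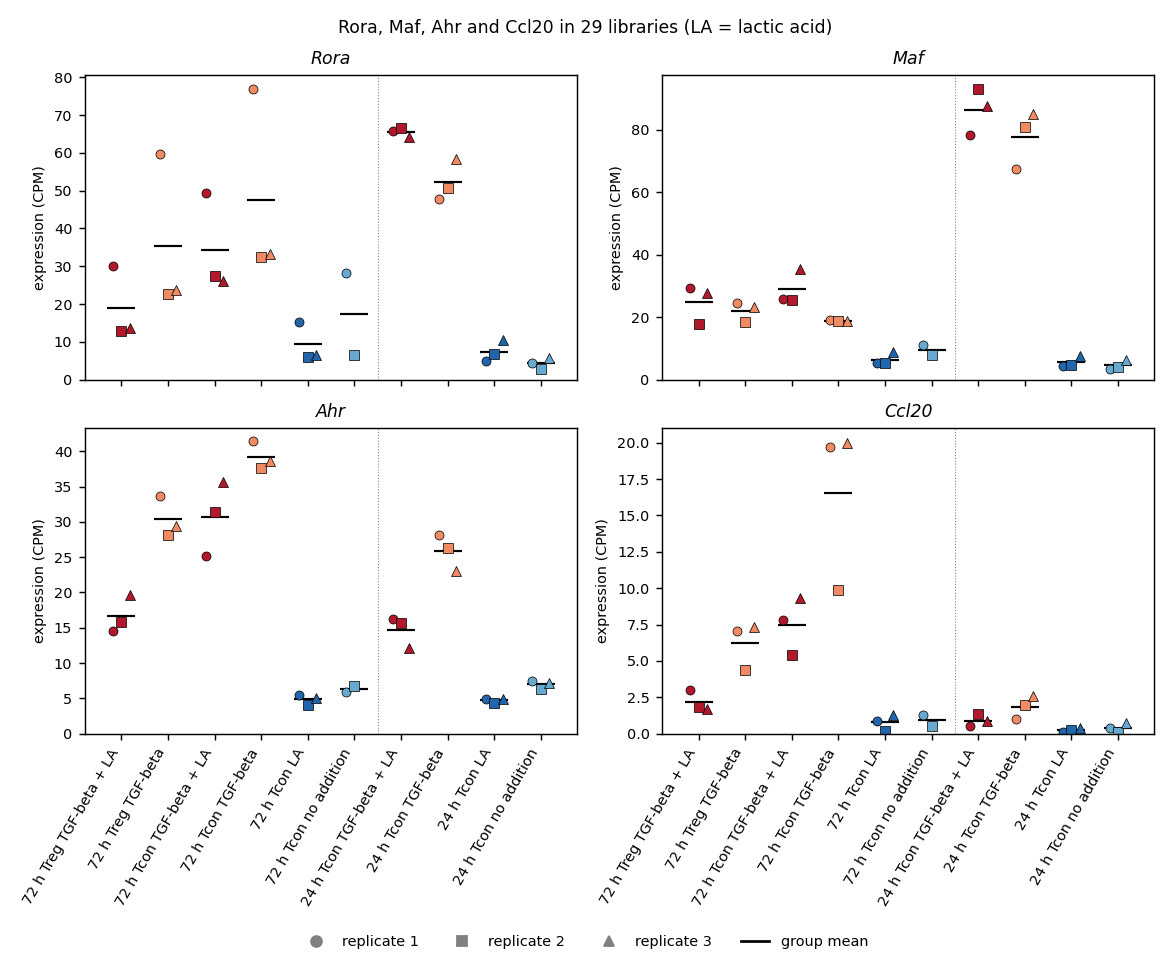
Expression of Rora, Maf, Ahr and Ccl20 in CPM (y axes) in each of the 29 libraries, by group (x axes); symbols are replicates 1 to 3 and lines are group means. Maf, Ahr and Ccl20 are low in every group without TGF-beta. Rora in 72 h Tcon with neither addition (28.2 and 6.64) overlaps 72 h Treg with both (13.0 to 30.1). By group mean, Rora and Maf are highest at 24 h, and Ahr and Ccl20 are highest in 72 h Tcon with TGF-beta. The highest Rora library is replicate 1 of 72 h Tcon with TGF-beta alone (77.0). For Rora, the 72 h replicate 1 libraries are the highest of their group.

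Rora (ROR alpha) was highest by group mean in 24 h Tcon with TGF-beta. It measured 65.8, 66.6 and 64.2 CPM with TGF-beta and lactic acid and 47.7, 50.6 and 58.4 CPM with TGF-beta alone. The 24 h Tcon with lactic acid alone had 4.88, 6.78 and 10.4 CPM, and those with neither had 4.52, 2.81 and 5.67 CPM. The groups with and without TGF-beta do not overlap. At 72 h, replicate 1 was the highest library in all 6 groups, by 1.84 to 4.25 times the mean of the others. Treg had 30.1, 13.0 and 13.6 CPM with lactic acid and 59.8, 22.7 and 23.8 CPM without it. Tcon had 49.3, 27.5 and 26.0 CPM with TGF-beta and lactic acid, and 77.0, 32.4 and 33.3 CPM with TGF-beta alone. Without TGF-beta they had 15.4, 6.01 and 6.65 CPM with lactic acid and 28.2 and 6.64 CPM with neither. In the order of group means, 8 of 9 neighbouring groups overlap, and only the highest group, 24 h Tcon with TGF-beta and lactic acid, lies wholly above the next. The highest single library, at 77.0 CPM, was replicate 1 of 72 h Tcon with TGF-beta alone.

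Maf encodes a leucine zipper transcription factor that promotes interleukin 21 and interleukin 10 production in T cells. At 24 h it measured 78.3, 93.2 and 87.5 CPM with TGF-beta and lactic acid and 67.4, 80.9 and 84.9 CPM with TGF-beta alone. The 24 h groups without TGF-beta had 4.45, 4.69 and 7.45 CPM with lactic acid and 3.46, 4.0 and 6.29 CPM with neither. These 2 pairs of groups are far apart. Every 72 h library lay below the 24 h TGF-beta libraries. Treg had 29.3, 17.8 and 27.7 CPM with lactic acid and 24.5, 18.6 and 23.4 CPM without it. Tcon had 26.0, 25.6 and 35.3 CPM with TGF-beta and lactic acid and 19.2, 18.7 and 18.7 CPM with TGF-beta alone. The 72 h Tcon without TGF-beta had 5.27, 5.22 and 8.92 CPM with lactic acid and 11.0 and 7.84 CPM with neither, again below all TGF-beta libraries.

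Ahr encodes the aryl hydrocarbon receptor, a ligand-activated factor that raises interleukin 22 in Th17 cells. Its highest group was 72 h Tcon with TGF-beta alone (41.4, 37.7 and 38.7 CPM), which lay above the same cells with lactic acid (25.2, 31.4 and 35.6 CPM). Treg had 14.5, 15.8 and 19.7 CPM with lactic acid, wholly below the 33.7, 28.2 and 29.4 CPM without it. The 24 h Tcon had 16.3, 15.6 and 12.1 CPM with TGF-beta and lactic acid, wholly below the 28.2, 26.3 and 23.0 CPM with TGF-beta alone. Without TGF-beta, no library passed 7.45 CPM at either time. With lactic acid these were 5.45, 4.08 and 5.11 CPM at 72 h and 4.88, 4.27 and 4.91 CPM at 24 h, below the 5.85 and 6.71 CPM (72 h) and 7.45, 6.38 and 7.19 CPM (24 h) with neither. Ahr is thus the member whose libraries with lactic acid lay below those without it in all 5 comparisons, with no overlap in any.

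Ccl20, the CCR6 ligand by which Th17 cells draw other CCR6+ cells, was low at 24 h and highest in 72 h Tcon. Treg had 2.98, 1.85 and 1.72 CPM with lactic acid and 7.02, 4.37 and 7.30 CPM without it, and these do not overlap. In 72 h Tcon it measured 7.80, 5.37 and 9.29 CPM with TGF-beta and lactic acid, wholly below the 19.7, 9.85 and 20.0 CPM with TGF-beta alone. The other groups averaged 1.84 CPM or less, the highest of them being 24 h Tcon with TGF-beta alone (0.990, 1.98 and 2.56 CPM).

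Il17a and Il17f encode the signature cytokines of Th17 cells, secreted as homodimers or as a heterodimer. Il17f had 23, 9 and 33 reads in 72 h Tcon with TGF-beta and lactic acid and 8, 10 and 33 reads with TGF-beta alone. The 72 h Tcon without TGF-beta held 0, 0 and 1 reads with lactic acid and 1 and 0 reads with neither. Treg had 2, 0 and 1 reads with lactic acid, wholly below the 10, 4 and 4 reads without it. At 24 h, Tcon had 18, 24 and 36 reads with TGF-beta and lactic acid, 13, 20 and 36 with TGF-beta alone, 3, 0 and 4 with lactic acid alone and 3, 1 and 4 with neither. Il17f reads were therefore mostly in the TGF-beta groups, and the TGF-beta groups of Tcon lay wholly above their matches.

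Il17a reads were spread more widely. Treg held 5, 0 and 1 reads with lactic acid and 2, 0 and 2 without it. The 72 h Tcon had 36, 10 and 23 reads with TGF-beta and lactic acid, 6, 6 and 8 with TGF-beta alone, 0, 8 and 21 with lactic acid alone and 4 and 4 with neither. The 24 h Tcon had 14, 33 and 29 reads with TGF-beta and lactic acid, 19, 4 and 22 with TGF-beta alone, 8, 3 and 13 with lactic acid alone and 3, 0 and 7 with neither. The 3 libraries of 72 h Tcon with lactic acid alone show how far replicates can lie apart, and with TGF-beta in the medium the 72 h Tcon with lactic acid lay wholly above those without it.

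Il23r, the receptor subunit that binds interleukin 23, had 35 reads in all 29 libraries together, in 15 libraries, and never more than 5 in 1 library. Il1r1, the signalling receptor for interleukin 1, had 100 reads in 25 libraries and at most 11 in 1. The 3 Treg libraries with lactic acid held 0 reads of either gene, which allows up to 0.0818 CPM (3 counts over the group; counting error only). With 3 counts in place of 0, Il1r1 was 4.58-fold lower than the 13 reads of Tcon in the same medium. It was 2.24-fold lower than the 7 reads of Treg without lactic acid. These values take the 13 and 7 reads as exact, so counting error in them is not covered, and they have no test. Il23r was highest in 72 h Tcon with neither addition (4 and 4 reads) and had 0, 0 and 2 reads in 72 h Tcon with TGF-beta alone, a ratio of 0.168 (95% interval 0.0173 to 0.84, counting error only).

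**Figure D2:**
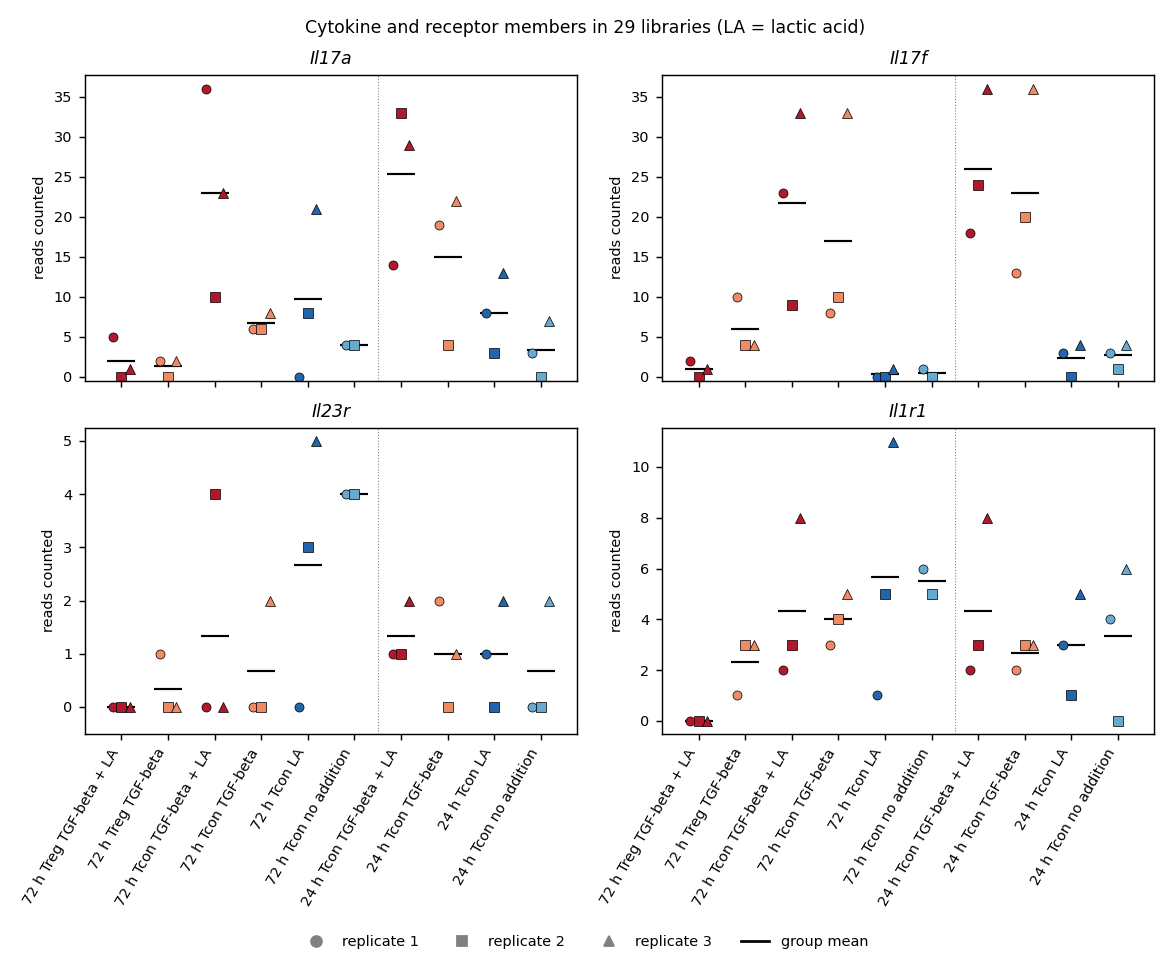
Reads counted (y axes) for Il17a, Il17f, Il23r and Il1r1 in each of the 29 libraries, by group (x axes), with replicates as symbols and group means as lines. No library holds more than 36 reads of a cytokine gene, Il17f is near 0 in the 72 h Tcon without TGF-beta, and both receptor genes are at 0 in the 3 Treg libraries with lactic acid.

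TGF-beta was tested in Tcon against the same medium without it. All 6 tested members had positive log2 fold changes in all 4 comparisons; Maf, Ahr and Il17f passed the test in 4, Rora and Ccl20 in 3 each and Il17a in none. Of 24 pairs of member and comparison, 18 were called (adjusted p below 0.05), all higher with TGF-beta, which is 75.0% of them against 23.3% of all genes over these 4 comparisons. Il17f had at most 4 reads in any library without TGF-beta. It passed the filter on low counts (minimum count 10) only through libraries with TGF-beta, which favours its 4 calls among the 18. By comparison, 5 of 6 tested members were called at 72 h with lactic acid (45.0% of all genes called), 4 at 72 h without it (24.5%), 4 at 24 h with lactic acid (12.4%) and 5 at 24 h without it (11.3%). The member medians of the log2 fold change in the same order were 2.38, 2.02, 2.59 and 2.69, and over all genes -0.02, -0.03, 0.01 and 0.00. The 72 h counts are read against a high background.

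At 24 h the factor genes were well separated. Maf was 17.5-fold higher with TGF-beta than without it (log2 fold change 4.13 ± 0.26 SE, adjusted p = 6.87e-11), and 16.2-fold higher with lactic acid in both media (4.02 ± 0.26, adjusted p = 9.20e-11). Rora was 12.4-fold higher (3.63 ± 0.54, adjusted p = 4.94e-05) and, with lactic acid, 9.26-fold higher (3.21 ± 0.52, adjusted p = 1.15e-04). Ahr rose 3.77-fold (1.92 ± 0.15, adjusted p = 3.22e-09) and 3.24-fold with lactic acid (1.70 ± 0.16, adjusted p = 4.39e-08). All libraries with TGF-beta lay above all libraries without it for these 3 genes.

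At 72 h, Ccl20 and Ahr had larger fold changes than Maf and Rora. Ahr was 6.11-fold higher with TGF-beta (2.61 ± 0.18, adjusted p = 2.51e-10) and 6.19-fold with lactic acid (2.63 ± 0.16, adjusted p = 9.83e-12). Ccl20 was 18.1-fold higher (4.18 ± 0.59, adjusted p = 1.10e-05) and 9.61-fold with lactic acid (3.26 ± 0.51, adjusted p = 1.75e-05). Maf was 1.97-fold higher (0.98 ± 0.27, adjusted p = 0.00974), a call lost without replicate 2 of the Tcon with neither addition (adjusted p = 0.144), and 4.39-fold with lactic acid (2.14 ± 0.24, adjusted p = 2.41e-07). Rora was called with lactic acid (1.86 ± 0.50, adjusted p = 0.00430), and without it had a log2 fold change of 1.43 ± 0.55 (adjusted p = 0.0609). With the replicate number within each time as a block that value was 1.70 (adjusted p = 5.69e-08), and without all 72 h replicate 1 libraries 2.28 (adjusted p = 5.42e-06).

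Il17f was called in all 4 TGF-beta comparisons on few reads. At 24 h its log2 fold change was 3.13 ± 0.72 (adjusted p = 0.00462) and with lactic acid 3.33 ± 0.73 (adjusted p = 0.00282). At 72 h there were 51 reads with TGF-beta against 1 without it (ratio 34.2, 95% interval 5.87 to 1380.0 for counting error; adjusted p = 0.00363). That call was lost without replicate 2 of the Tcon with neither addition (adjusted p = 0.0614) and when these groups were fitted alone (adjusted p = 0.0796). With lactic acid there were 65 reads with TGF-beta against 1 without it (ratio 70.2, interval 12.2 to 2820.0; adjusted p = 8.82e-05). Il17a was called in none of the 4 by edgeR without a block (1 of 4 at an unadjusted p below 0.05, and 0 by DESeq2). With the block it was called at 24 h without lactic acid (2.19, adjusted p = 0.0383) and with it (1.63, adjusted p = 0.0468). Ccl20 at 24 h was called without lactic acid (2.25 ± 0.63, adjusted p = 0.0200), lost in 4 of 6 fits with 1 compared library left out (replicates 1 and 2 of the cells with neither addition, replicates 2 and 3 with TGF-beta; highest adjusted p = 0.111). With lactic acid it had 1.96 ± 0.76 (adjusted p = 0.0983), and with the block 1.95 (adjusted p = 0.0107).

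**Figure D3:**
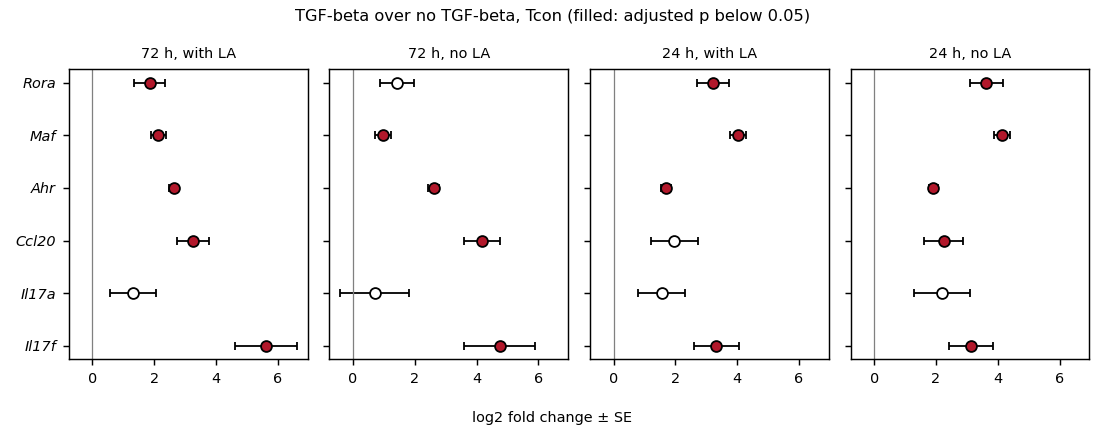
Log2 fold change of TGF-beta over no TGF-beta in Tcon (x axes; points, with bars of 1 SE) for the 6 tested members (y axis) in 4 comparisons; filled points have an adjusted p below 0.05. All 24 values are above 0 and 18 are filled, and Maf and Rora lie further right at 24 h than at 72 h.

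Lactic acid was tested in all 5 pairs of groups that differ by it. Ahr had a negative log2 fold change in all 5 and passed the test in 2, and no other member passed it. Of 30 pairs over 5 comparisons, 2 were called, both for Ahr and both lower, which is 6.67% against 1.21% of all genes. With the replicate block, 9 of the 30 were called, against 9.9% of all genes under that block. Among these, Maf in 72 h Tcon with TGF-beta was higher (0.60) and the others were lower. The member median was -0.89 in Treg against 0.01 over all genes, and between -0.41 and 0.12 in the 4 Tcon comparisons. Ahr fell 1.83-fold in Treg (-0.87 ± 0.14, adjusted p = 0.00113), kept in each of 6 fits with 1 compared library left out, and not called when these groups were fitted alone (-0.90, adjusted p = 0.113). It fell 1.74-fold in 24 h Tcon with TGF-beta (-0.80 ± 0.14, adjusted p = 0.0174), a call lost in 3 of 6 such fits (without replicate 1 or 2 with TGF-beta alone, or replicate 3 with both; highest adjusted p = 0.166). It had -0.36 ± 0.14 in 72 h Tcon with TGF-beta (adjusted p = 0.213; block -0.36, adjusted p = 0.0290), -0.37 ± 0.18 in 72 h Tcon without it (adjusted p = 0.555) and -0.58 ± 0.16 in 24 h Tcon without it (adjusted p = 0.266).

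Background calls for lactic acid were 3.51% of genes in Treg, 2.16% in 72 h Tcon with TGF-beta, 0.0696% in 72 h Tcon without it, 0.23% in 24 h Tcon with TGF-beta and 0.0835% in 24 h Tcon without it. EdgeR called 0 of 6 members in 3 of these comparisons (4 of 6 at an unadjusted p below 0.05 in 72 h Tcon with TGF-beta, and 1 of 6 in each Tcon comparison without it; 0 by DESeq2). Several pairs of member and comparison passed with same-numbered libraries as a block. Ccl20 had a log2 fold change of -1.51 ± 0.45 in Treg (adjusted p = 0.0633; block -1.49, adjusted p = 1.46e-04; DESeq2 adjusted p = 0.0309) and -1.14 ± 0.40 in 72 h Tcon with TGF-beta (adjusted p = 0.154; block -1.13, adjusted p = 2.28e-04). Rora had -0.91 ± 0.48 in Treg (adjusted p = 0.340; block -0.88, adjusted p = 2.71e-04; without the 72 h replicate 1 libraries -0.80, adjusted p = 0.0222) and -0.47 ± 0.46 in 72 h Tcon with TGF-beta (adjusted p = 0.740; block -0.43, adjusted p = 0.0496). Both genes were lower with lactic acid in all 3 same-numbered pairs of each comparison.

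Maf in 72 h Tcon with TGF-beta had a log2 fold change of 0.62 ± 0.23 (adjusted p = 0.176; block 0.60, adjusted p = 0.00390), higher with lactic acid in 3 of 3 pairs. Il17f reads in Treg were 3 with lactic acid against 18 without it, a ratio of 0.174 (95% interval 0.0328 to 0.595 for counting error; adjusted p = 0.219; block adjusted p = 0.0420). Il17a in 72 h Tcon with TGF-beta had a log2 fold change of 1.84 ± 0.78 (adjusted p = 0.269), with 69 reads with lactic acid against 20 without it and higher in 3 of 3 pairs. Il17f had 0.42 ± 0.56 (adjusted p = 0.829) in the same libraries.

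The B cell marker sum also differed with lactic acid in the 72 h TGF-beta groups. It was 282 ± 23.0 CPM with lactic acid against 132 ± 27.2 CPM without it in Treg, and 189 ± 4.46 against 98.6 ± 11.6 CPM in Tcon (SD, n = 3 each). Ighm, the immunoglobulin mu heavy chain, was called higher in both (1.11 ± 0.13, adjusted p = 2.64e-05 in Treg; 0.96 ± 0.13, adjusted p = 1.53e-04 in Tcon), and each of the other 7 markers stayed at or below 3.25 CPM by group mean. In 24 h Tcon with TGF-beta the sum was 142 ± 8.57 CPM with lactic acid against 131 ± 4.26 CPM without it. The part of these cells in the lactic acid results was not tested.

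**Figure D4:**
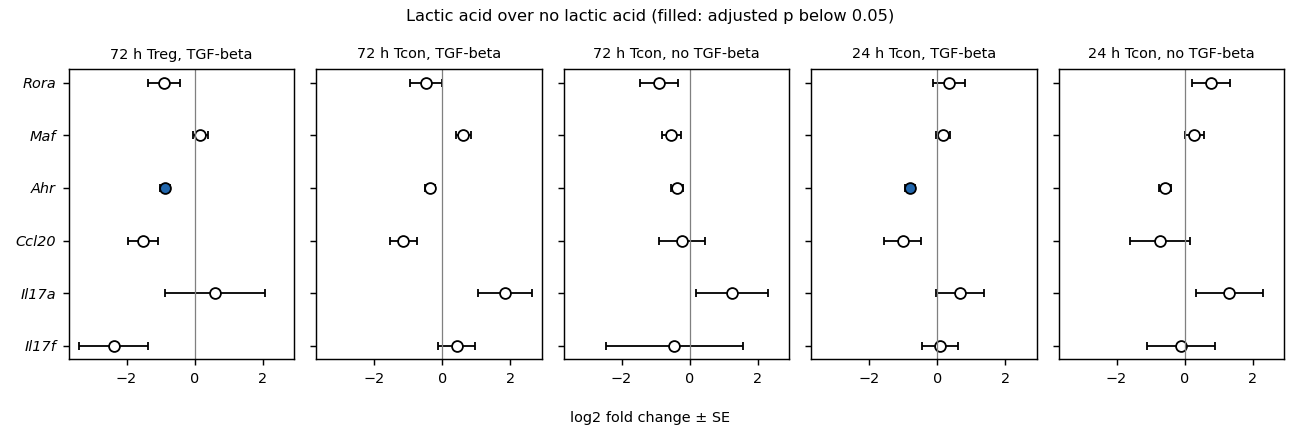
Log2 fold change of lactic acid over no lactic acid (x axes; points, with bars of 1 SE) for the 6 tested members (y axis) in 5 comparisons; filled points have an adjusted p below 0.05. Ahr is below 0 in all 5 and filled in 72 h Treg and in 24 h Tcon with TGF-beta.

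Treg were set against Tcon of the same medium at 72 h. With lactic acid, 3 of 6 members were called, all lower in Treg, against 2.55% of all genes. Il17f, 1 of the 3, had at most 2 reads in any Treg library with lactic acid. It passed the filter on low counts only through Tcon libraries, which favours its call here. Without lactic acid edgeR called 0 of 6 (0.216% of all genes; 3 of 6 members at an unadjusted p below 0.05, and 0 by DESeq2). Over both media 3 of 12 pairs were called, and 6 with the replicate block, under which 7.84% of all genes were called against 1.38% without it. The member medians were -1.32 with and -0.91 without lactic acid, against 0.01 and 0.00 over all genes. Ahr was 1.83-fold lower in Treg with lactic acid (-0.87 ± 0.14, adjusted p = 0.00112; 0.0542 when these groups were fitted alone), against -0.36 ± 0.14 without it (adjusted p = 0.624). Ccl20 was 3.42-fold lower (-1.77 ± 0.45, adjusted p = 0.0309), a call lost in 4 of 6 fits with 1 compared library left out (Tcon replicates 1 and 3, Treg replicates 2 and 3; highest adjusted p = 0.180). Without lactic acid it had -1.40 ± 0.40 (adjusted p = 0.275; block -1.38, adjusted p = 1.28e-04).

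Both cytokine genes had few reads in Treg. With lactic acid Il17f had 3 reads in Treg against 65 in Tcon, a ratio of 0.0437 (95% interval 0.00878 to 0.133 for counting error; adjusted p = 0.00597), a call lost without Treg replicate 2 (adjusted p = 0.0612). Il17a had 6 reads in Treg against 69 in Tcon, a ratio of 0.0823 (interval 0.0292 to 0.188; adjusted p = 0.0514; block adjusted p = 0.00627; DESeq2 adjusted p = 0.0212). Without lactic acid Il17a had 4 reads in Treg against 20 in Tcon (ratio 0.195, interval 0.0486 to 0.583; adjusted p = 0.981). Rora had a log2 fold change of -0.85 ± 0.48 with lactic acid (adjusted p = 0.481; block -0.89, adjusted p = 4.83e-04; without the 72 h replicate 1 libraries -0.99, adjusted p = 0.00603), and Maf -0.21 ± 0.22 (adjusted p = 0.774). Maf averaged 25.0 ± 6.22 CPM in Treg and 29 ± 5.48 CPM in Tcon with lactic acid (SD, n = 3 each).

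**Figure D5:**
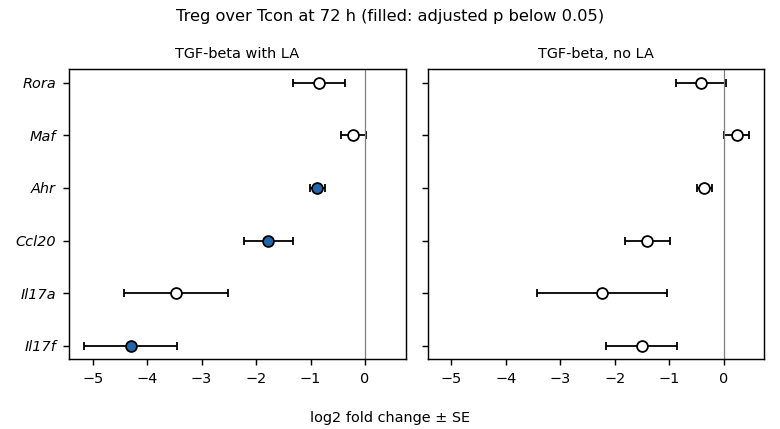
Log2 fold change of Treg over Tcon at 72 h (x axes; points, with bars of 1 SE) for the 6 tested members (y axis), with TGF-beta and lactic acid (left) and TGF-beta alone (right); filled points have an adjusted p below 0.05. With lactic acid all 6 values are below 0 and Ahr, Ccl20 and Il17f are filled.

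Whether the effect of lactic acid differed between Treg and Tcon, or with and without TGF-beta, was tested within each time. EdgeR called 0 of 18 pairs (3 of 18 at an unadjusted p below 0.05, and 0 by DESeq2; 0% of all genes for Treg against Tcon, 0.104% for TGF-beta at 72 h and 0% at 24 h). Over all genes, 381 for Treg against Tcon and 197 at 24 h had an unadjusted p below 0.05, and DESeq2 called 0 in both. For Maf at 72 h, the lactic acid effect with TGF-beta exceeded that without it by 1.16 ± 0.36 on the log2 scale (adjusted p = 0.317; block 1.24, adjusted p = 0.00447, with 4.54% of all genes called under that block). For Ahr the effect in Treg was lower than in Tcon by a difference of -0.52 ± 0.20 (adjusted p = 1.00).

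Over time, Tcon of 72 h were compared with Tcon of 24 h. No source states whether both times belong to 1 experiment, so time and experiment cannot be told apart. Of 24 pairs, 8 were called (33.3%), fewer by share than the 48.1% of all genes. By medium, 3 of 6 members were called with TGF-beta and lactic acid (47.4% of all genes), 3 with TGF-beta alone (52.8%), 0 with lactic acid alone (46.6%; 1 at an unadjusted p below 0.05 and 1 by DESeq2) and 2 with neither (45.5%). With TGF-beta, Ccl20 rose 8.78-fold (3.13 ± 0.45, adjusted p = 5.03e-06), Ahr rose 1.49-fold (0.58 ± 0.14, adjusted p = 0.00140) and Maf fell 4.20-fold (-2.07 ± 0.23, adjusted p = 9.06e-08). With lactic acid as well, the log2 fold changes were 3.01 ± 0.50 for Ccl20 (adjusted p = 2.71e-05), 1.02 ± 0.14 for Ahr (adjusted p = 3.29e-06) and -1.62 ± 0.22 for Maf (adjusted p = 2.44e-06). With neither addition, Rora (2.04 ± 0.58, adjusted p = 0.00660) and Maf (1.08 ± 0.28, adjusted p = 0.00350) were higher at 72 h, and both calls were lost without replicate 1 of the 72 h group (adjusted p = 0.515 for Rora and 0.0841 for Maf). Rora with TGF-beta had -0.17 ± 0.46 (adjusted p = 0.779) and, with lactic acid as well, -0.98 ± 0.46 (adjusted p = 0.0859). Without all 72 h replicate 1 libraries these were -0.69 (adjusted p = 0.00213) and -1.33 (adjusted p = 2.82e-06).

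The TGF-beta effect itself differed between the times for Maf and Ahr. For Maf it was smaller at 72 h than at 24 h by 3.16 on the log2 scale without lactic acid (difference -3.16 ± 0.36, adjusted p = 8.82e-06; 5.73% of all genes called) and with it (-1.88 ± 0.34, adjusted p = 5.97e-04; 14.4% of all genes). For Ahr it was larger at 72 h with lactic acid (0.93 ± 0.22, adjusted p = 0.00556), and without it the difference was 0.70 ± 0.23 (adjusted p = 0.0743). Rora had -2.20 ± 0.74 without lactic acid (adjusted p = 0.0855) and -1.35 ± 0.70 with it (adjusted p = 0.221). With all 72 h replicate 1 libraries left out these were -1.35 (adjusted p = 0.0162) and -1.16 (adjusted p = 0.00651).

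Across the 29 libraries, likeness was measured by Pearson correlation of log2 CPM, given as a description since libraries of a group share treatment. Rora and Maf had r = 0.872 and Ahr and Ccl20 0.863. Il17f had 0.759 with Maf, 0.740 with Rora and 0.672 with Il17a, whereas Il17a had 0.131 with Ahr and 0.099 with Ccl20. Among 12293 genes ranked, the genes most like Rora were Pde4a (0.953), Galnt9 (0.952) and Ttc39b (0.947), and those most like Maf were Stab1 (0.964), Fbxo2 (0.962) and Epb41l2 (0.949). Ahr was most like Adgrg1 (0.942), Dip2b (0.936) and Adam19 (0.921). Ccl20 was most like Ppp2r3a (0.947), Car2 (0.922) and Lamc3 (0.918). For the low genes the values were weaker: Cxcr6 (0.755), Ifngr2 (0.697) and 4930518I15Rik (0.693) for Il17a, and Arhgap39 (0.892), Wdyhv1 (0.869) and Gm15832 (0.841) for Il17f.

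Other Th17 genes were counted by list, naming at most 4 called genes with the smallest p per list and comparison. Of 14 further Th17 transcription factors, 7 were higher and 2 lower with TGF-beta at 24 h (median log2 fold change 0.40 against 0.00 over all genes). Of all genes, 7.96% were higher and 3.35% lower at 24 h, and 12.8% and 11.7% at 72 h, the background for this and the next lists. Runx1, a Runt family transcription factor, rose by 1.67 on that scale. At 72 h with TGF-beta 3 were higher and 2 lower (median 0.03 against -0.03 over all genes). Batf, a factor needed for Th17 cells, fell by 2.06 and Satb1 by 1.91.

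Among 12 tested Th17 receptors, 6 were higher and 1 lower with TGF-beta at 24 h, and 6 higher and 2 lower at 72 h (medians 0.91 and 0.53, against 0.00 and -0.03 over all genes). The 72 h count was 5 with these groups fitted alone or without replicate 2 of the Tcon with neither addition. Tgfbr1, a TGF-beta receptor chain, rose by 2.68 at 24 h and 2.39 at 72 h. Ccr6, the receptor of CCL20 and chosen after its values were seen, rose by 2.99 and 2.03. Il12rb1, the chain that pairs with Il23r, fell by 1.40 at both times. Of 8 tested cytokines and secreted products, 0 were higher and 1 lower with TGF-beta at 24 h (Csf2, which fell by 1.42; median 0.72). At 72 h 4 were higher and 2 lower (median 0.82), and with lactic acid in both media 2 were higher and 3 lower (median -0.52; 22.5% of all genes in each direction). At 72 h without lactic acid Il9 rose by 4.76, whereas Csf2 (GM-CSF) fell by 3.17 and Il21 by 3.15. With lactic acid, 3 were lower in Treg and 0 higher (2.02% and 1.49% of all genes): Il9 fell by 3.81, Csf2 by 1.96 and Il1rn by 1.82. With the Treg groups fitted alone, 0 of the 3 were called. In 72 h Tcon with TGF-beta the same 3 were lower with lactic acid and 0 higher (1.42% and 0.744% of all genes). There Il9 fell by 2.55, Il1rn by 1.47 and Csf2 by 1.15. A difference between Treg and Tcon in the lactic acid effect was called for 0 of the 8 (2 at an unadjusted p below 0.05, and 0 by DESeq2).

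Ahr target genes were followed because Ahr was the member called for lactic acid. Of 8 listed, 4 were tested. With TGF-beta at 72 h without lactic acid, 2 of 4 were called, both higher (12.8% of all genes). Ahrr (the Ahr repressor) rose by 2.94 and Cyp1a1, a classical target enzyme, by 1.81, and with these groups fitted alone 1 of the 2 was called. With lactic acid in both media, 3 of 4 were higher at 72 h (22.5% of all genes). At 24 h, 1 of 4 was higher without lactic acid (7.96% of all genes). With lactic acid, 0 of 4 were called at 24 h (0 at an unadjusted p below 0.05, and 0 by DESeq2). The median there was -0.06 against 0.015 over all genes. For lactic acid in Treg edgeR called 0 of 4 (0 at an unadjusted p below 0.05, and 0 by DESeq2; median -0.33 against 0.01 over all genes). In 24 h Tcon with TGF-beta it also called 0 of 4 (2 at an unadjusted p below 0.05, and 0 by DESeq2; median -0.70 against 0.01 over all genes). Those 2, chosen after their values were seen, are Ahrr (-2.25 ± 0.47, adjusted p = 0.0556) and Cyp1a1 (-1.501 ± 0.49, adjusted p = 0.301).

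Markers of other cells differed with TGF-beta. The summed level of 10 gamma-delta and innate-like T cell markers, cells that can make interleukin 17, at 72 h was 73.8 ± 37.8 CPM in Tcon with TGF-beta and lactic acid against 7.13 ± 3.35 CPM with lactic acid alone (SD, n = 3 each), and 56.3 ± 37.4 CPM with TGF-beta alone (n = 3) against 5.55 ± 3.89 CPM with neither (n = 2). It was 41.2 and 38.9 CPM in Treg with and without lactic acid. At 24 h it was 12.8 ± 4.37 CPM with TGF-beta against 8.87 ± 3.26 CPM without it in lactic acid media, and 9.45 ± 2.60 against 5.97 ± 1.32 CPM in media with none. Of the 10 markers, 8 or 9 were detected per group, and Tcrg-C2 (up to 38.8 CPM by group mean) and Tcrg-C4 (up to 29.1 CPM) made up most of the sum. Replicate 1, which had the highest Rora, had the lowest sum in each of these 72 h groups (30.1 CPM with TGF-beta and lactic acid, 13.2 CPM with TGF-beta alone). By highest group mean, Trdc reached 7.78 CPM, Zbtb16 3.21 CPM and Tcrg-C1 1.23 CPM. Sox13, Klrb1c, Blk, Trdv4 and Cd163l1 reached 0.583, 0.203, 0.17, 0.0526 and 0.03 CPM. At 72 h without lactic acid, Tcrg-C2 (log2 fold change 4.88), Tcrg-C4 (4.87) and Trdc (1.78) were called higher with TGF-beta. In lactic acid media Tcrg-C2 (4.54) and Tcrg-C4 (4.94) were. Summed markers of CD8 T and natural killer cells reached 124 ± 25.5 against 25.8 ± 6.10 CPM and 73.8 ± 26.7 against 28.7 ± 4.41 CPM in the same comparisons. At 24 h the order was the opposite, at 21.3 ± 4.78 with TGF-beta against 140 ± 13.2 CPM without it in lactic acid media, and 17.5 ± 2.27 against 117 ± 12.1 CPM in media with none (SD, n = 3 each). The most abundant gene of this list by highest group mean was Eomes (126 CPM), which CD4+ T cells also express. Klrk1 reached 27.7 CPM, Cd8b1 12.1 CPM, and Cd8a and Klrd1 11.9 CPM each. At 72 h without lactic acid, 5 of 6 tested were called higher with TGF-beta (12.8% of all genes). These were Cd8a (4.68), Gzmk (3.79), Klrd1 (2.53), Eomes (1.45) and Klrk1 (1.37). At 24 h without lactic acid, Eomes (-3.16) and Cd8b1 (-1.26) were called lower (3.35% of all genes). The B cell marker sum at 24 h was 142 ± 8.57 CPM with TGF-beta against 231 ± 12.8 CPM without it in lactic acid media, and 131 ± 4.26 against 243 ± 11.0 CPM in media with none. Nearly all of this sum was Ighm. Of 3 B cell markers tested, only Ighm was called, lower in both (-0.66 with lactic acid, -0.87 without it). Of all genes, 4.38% and 3.35% were lower. The part of these cells in the TGF-beta results was not tested.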

How the data were processed

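PolyA-selected RNA of 29 libraries was sequenced as single reads. The authors deposited raw read counts per Ensembl gene; STAR 2.7.3a, HTSeq 0.12.4, DESeq2 1.30.1 and GRCm39 are named per the submitters' processing notes, while no source used here states the annotation release or how strand was handled in counting. Entries that name no gene (13.3 to 17.0% low quality, 5.72 to 11.2% no feature, 1.01 to 1.13% ambiguous) were left out.

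Of the 55414 identifiers, 52081 were matched to a symbol. CPM uses TMM library sizes. EdgeR 4.0.16 (R 4.3.3) quasi-likelihood tests were run in 1 fit of all libraries by group, on 14375 genes passing filterByExpr (minimum count 10, total 15), two-sided, with Benjamini-Hochberg adjustment over all genes within a comparison and a threshold of 0.05; SE is the log2 fold change over the square root of F. Ratios of summed reads carry 95% intervals for counting error, since reads are not independent molecules. A group at 0 is set to 3 counts, and the other group's count is then taken as exact. CPM per kb uses exon lengths from GENCODE M21. The edgeR test was tried on simulated counts with known changes, for lactic acid in Treg and for TGF-beta in 72 h Tcon without lactic acid.

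Same-numbered libraries within a time point deviated together (correlations 0.12 to 0.77 over 11 comparisons, different numbers at most 0.51), and the number was used as a block there. The match by number was not complete at 72 h. For Tcon with TGF-beta and lactic acid, replicate 3 had 0.33 with replicate 2 of lactic acid alone and 0.24 with its replicate 3. Between times the values for the same number were -0.06 to 0.15. Alternatives were RLE scaling, no filter, DESeq2 1.42.0, the compared groups alone, replicate blocks, and libraries left out. Named genes were the 8 members, the 3 genes most correlated with each (prior count 2, mean of at least 1 CPM), and list genes called with the smallest p, of which 1 is not reported here. The members and lists were chosen with earlier results of these data known.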

Additional observations from a re-analysis of the deposited data

Results flagged for a closer look

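The effect of TGF-beta in Tcon differed between 72 h and 24 h for 2 genes, by edgeR's test of the difference itself. For Maf the log2 difference was -3.155 ± 0.36 SE without lactic acid (adjusted p = 8.82e-06) and -1.882 ± 0.34 with it (adjusted p = 5.97e-04). For Ahr with lactic acid it was 0.932 ± 0.22 (adjusted p = 0.00556). All 3 calls were kept in each fit with 1 compared library left out. The times may be separate experiments, so time and experiment cannot be told apart.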

How the results depend on the processing

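No value changed direction among the called pairs of member and comparison under any alternative. Of 34 calls, 34 were kept with RLE scaling, no filter, a replicate block over all libraries and DESeq2, and 23 of 23 with the block within a time point. The compared groups alone kept 31, and leaving out all 72 h replicate 1 libraries kept 32. With 1 compared library left out, 26 were kept in every fit. For lactic acid the 2 calls became 4 with no filter, 5 with the block over all libraries, 9 with the block within a time point and 1 with the groups alone (1 to 3 with a library left out). For Treg against Tcon the 3 became 6 with no filter, 5 with the block over all libraries, 6 with the block within a time point and 5 without the 72 h replicate 1 libraries (1 to 4). The 3 interaction calls became 5 without those libraries (3 to 4), and the 0 within a time point became 1 with the block (0 to 0). TGF-beta calls were 16 to 19 and time calls 6 to 9 with a library left out. The causes were not tested. Between times the replicate numbers were not treated as pairs. Il17a, Il17f, Il23r and Il1r1 are limited by their few reads.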
